A study of Rattus norvegicus with 12 samples.

Results

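Granule neuron identity and maturation genes are 34 genes that mark the cerebellar granule neuron lineage from its dividing progenitor to the mature cell. They were chosen by symbol, with earlier results of these data known. A gene was represented by the probe sets that carried its symbol and no other in the platform annotation. Of the 34 genes, 31 had such a probe set (49 probe sets, among 20826 with 1 symbol for 14217 genes), while Atoh1, Gli3 and Ptch1 had none and were not analysed here. A test was possible for 28 genes (43 probe sets) whose mean signal over all arrays passed a filter on dim probe sets. Gli1, Smo and Meis2 lay below that filter (intensities of 1.35 to 12, 1.56 to 26.4 and 2.03 to 19.8 over the 12 arrays), so a change in them was not detectable at this signal. The study hybridised RNA from cultured rat cerebellar granule neurons to 12 one-colour Affymetrix rat arrays. Its groups were low potassium for 3 h, GW5074 for 3 h, low potassium for 6 h and GW5074 for 6 h, with 3 arrays each, lettered A, B and C. GW5074 is a small molecule that inhibits RAF kinase, and withdrawal of raised potassium is a standard way to start apoptosis in these neurons. The labels give neither the strain, the age of the animals, the days in culture nor the dose, and whether the GW5074 cultures also had their potassium lowered is not stated. No group kept in raised potassium or left untreated is part of the data, so each value below is a difference between these 4 groups and not a departure from a healthy baseline. The labels do not say whether the letters mark separate cultures, so p-values measure the spread between these arrays, which may be technical.

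In the developing cerebellum, granule cell progenitors divide in the external granular layer while Sonic hedgehog from Purkinje cells signals through Ptch1, Smo and the Gli factors to keep Mycn expressed. After the last division the cells turn on Neurod1 and other lineage factors, migrate inward along glia and build the vesicular glutamate transporters, neurofilaments and synaptic proteins of the mature neuron. Progenitor genes and mature genes are therefore usually read as opposite ends of one developmental axis. In a bulk sample, fewer cells of a type and less RNA per cell cannot be told apart, and this holds for every level below.

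Signal of granule neurons was described with 10 marker genes. Of these, 8 are also members, so their sums are not an independent check of which cells were present. All 10 were bright enough to test. Their summed intensity ranged from 6095 to 8156 in low potassium at 3 h and from 12241 to 14074 at 6 h. With GW5074 the sums were 5875 to 7344 at 3 h and 11927 to 15105 at 6 h. Over all probe sets the times separated along the first principal component (54.7% of the variance). On a scale where the mean 3 h array is 0 and the 6 h arrays A and C average 1, the 6 h arrays of letter B sat at 0.59 in low potassium and 0.54 with GW5074, against 0.94 to 1.06 for the other 6 h arrays. The number of arrays, 3 per group, limits the precision of every value.

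Promoter sequences are shown for 5 genes on which the results turn and which have an entry in the RefSeq promoter table for the rat build GRCr8, a table that holds 23 of the 34 members. Neurod1 and Fat2 had large rises over time, and Slc17a7 and Boc passed a paired test between the treatments at 6 h. Reln passed no such test, but its treatment difference changed between the times in the paired fit. The 250 bases before each gene start are printed for all 5. They lie at chr3:84770455-84770704, minus strand for Neurod1, chr10:39956903-39957152, minus strand for Fat2, chr1:104785955-104786204, plus strand for Slc17a7, chr11:69628453-69628702, plus strand for Boc and chr4:13628318-13628567, plus strand for Reln. Capitals mark E-boxes, the CANNTG motif bound by basic helix-loop-helix factors such as Neurod1 and Atoh1, which reads the same on both strands.
Neurod1: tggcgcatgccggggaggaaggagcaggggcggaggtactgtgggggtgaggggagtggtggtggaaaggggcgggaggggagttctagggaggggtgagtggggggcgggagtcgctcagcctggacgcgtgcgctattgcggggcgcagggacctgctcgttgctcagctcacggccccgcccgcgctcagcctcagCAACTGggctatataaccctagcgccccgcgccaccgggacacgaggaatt
Fat2: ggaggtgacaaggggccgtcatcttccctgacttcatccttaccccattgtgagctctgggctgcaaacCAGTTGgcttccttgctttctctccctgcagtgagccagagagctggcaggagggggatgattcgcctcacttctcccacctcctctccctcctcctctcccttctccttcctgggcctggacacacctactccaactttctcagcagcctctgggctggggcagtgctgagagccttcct
Slc17a7: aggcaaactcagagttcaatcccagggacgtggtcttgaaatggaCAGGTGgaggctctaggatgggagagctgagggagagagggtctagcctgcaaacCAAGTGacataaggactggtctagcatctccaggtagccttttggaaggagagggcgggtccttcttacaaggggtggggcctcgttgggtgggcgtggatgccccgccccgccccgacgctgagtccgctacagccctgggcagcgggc
Boc: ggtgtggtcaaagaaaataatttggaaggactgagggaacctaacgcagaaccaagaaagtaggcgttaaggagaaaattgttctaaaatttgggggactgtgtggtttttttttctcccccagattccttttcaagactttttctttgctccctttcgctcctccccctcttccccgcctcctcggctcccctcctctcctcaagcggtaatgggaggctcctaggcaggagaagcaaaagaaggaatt
Reln: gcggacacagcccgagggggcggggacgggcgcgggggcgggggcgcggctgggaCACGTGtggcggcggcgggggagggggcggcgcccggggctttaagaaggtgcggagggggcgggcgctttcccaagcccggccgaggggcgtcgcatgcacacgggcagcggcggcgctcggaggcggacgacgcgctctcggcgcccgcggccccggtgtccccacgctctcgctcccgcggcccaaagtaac
Neurod1 has its E-box 51 bases before the gene start, Fat2 181 bases before it and Reln 195 bases before it. Slc17a7 has E-boxes at 205 and 150 bases before its start, and the Boc window has none. Of the 23 member promoters 13 held the motif, whereas 65.5% of all 33469 promoters of the same length did, so the motif was not more frequent among the members. The form CAGCTG occurred in 2 member promoters (12% of all promoters) and CAGATG, counted on both strands, in 2 (14%). CAGCTG and CAGATG are forms of CANNTG and overlap it. The Gli site GACCACCCA, on both strands, was found in 1 member promoter, that of Ptch1, and in 0.338% of all promoters. The nuclear factor I half-site TTGGCA was found in 1, that of Neurod2, and in 12% of all. A match is only a stretch of letters, and its absence from these windows says nothing about a factor.

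From 3 h to 6 h the granule neuron genes rose far more often than they fell, under both conditions. In low potassium 11 of the 28 tested genes rose and none fell (limma; Mycn alone was lower at an unadjusted p under 0.05). With GW5074 19 rose and 1, Mycn, fell. Rbfox3, Neurod1 and Fat2 had the smallest p-values among the members in both conditions, with rises between 2.28-fold and 4.28-fold. By probe set, 14 of 43 (32.6%) rose in low potassium, where 11.6% of all 18625 tested probe sets rose and 11% fell. With GW5074 28 of 43 (65.1%) rose, against 13.1% of all probe sets, and 11.9% of all fell. The members were chosen with earlier results of these data known, so their excess over all probe sets is not independent evidence. The median change of the 28 genes was 0.41 on the log2 scale in low potassium and 0.73 with GW5074, while that of all tested probe sets lay within 0.01 of 0 in each condition. Calls are from limma at a Benjamini-Hochberg adjusted p of 0.05 over all tested probe sets, and fold changes are on a log2(intensity + 16) scale, which understates the change of dim genes. Time after treatment and time in culture cannot be told apart here. The labels do not say whether the 3 h and 6 h arrays were prepared together, so a difference in preparation cannot be told apart from time either. The 11 genes that rose in low potassium also rose with GW5074, and 8 more passed the threshold with GW5074 alone, for which a difference between the conditions is not thereby shown. Leaving out low potassium 3 h B or 6 h C brought the low potassium count to 5 genes. Without GW5074 3 h B the GW5074 rises of Calb2, Etv1, Nfib, Pax6 and Slc17a7 ended. Without GW5074 6 h C those of Calb2, Etv1, Map2, Pax6, Slc17a6 and Slc17a7 ended. Leaving out both 6 h arrays of letter B gave 11 genes in low potassium and 20 with GW5074.

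**Figure D1:**
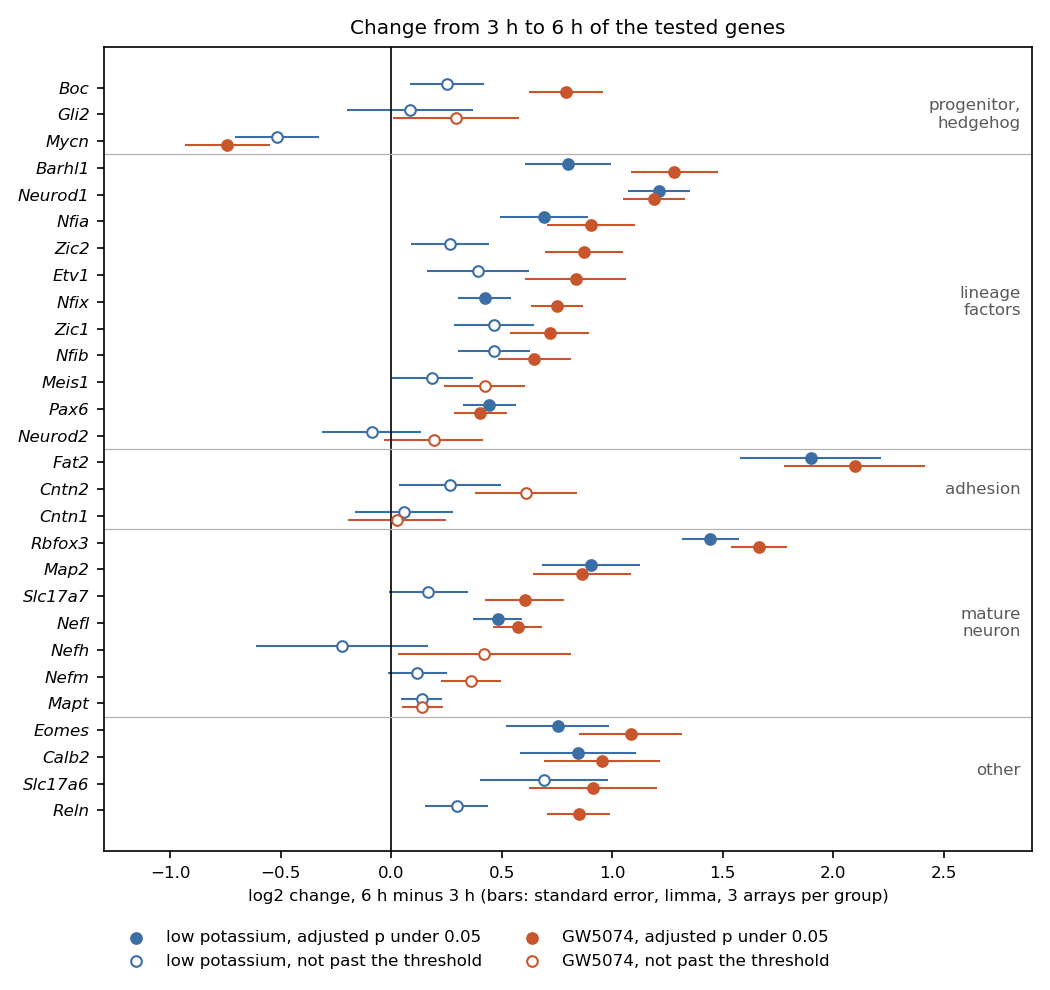
Change from 3 h to 6 h (log2 scale, 6 h minus 3 h) of the 28 tested genes in low potassium (blue) and with GW5074 (orange), grouped by role, with bars for the standard error of the limma fit on 3 arrays per group and filled points for an adjusted p under 0.05. Most points lie right of 0, the adhesion gene Fat2 lies farthest right at 1.90 and 2.10, and Mycn lies left of 0 at -0.52 and -0.74.

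Among the progenitor and hedgehog genes, Mycn fell and Boc rose with GW5074, and neither passed the threshold in low potassium. Mycn encodes N-Myc, the transcription factor through which hedgehog signalling keeps progenitors dividing. Its intensity was 64.9, 78 and 55.3 in low potassium at 3 h (arrays A, B and C, an order kept throughout) and 48, 37.1 and 38.8 at 6 h. With GW5074 it was 66.3, 81.1 and 52.9 at 3 h and 32.2, 35.1 and 27.8 at 6 h. Every 6 h array was below every 3 h array of its condition. The change was -0.74 ± 0.19 (SE) with GW5074, 1.67-fold lower (adjusted p = 0.0129), and -0.52 ± 0.19 (SE) in low potassium (adjusted p = 0.0648). At a pseudocount of 64 the GW5074 change of this dim gene was -0.43, still past the threshold. Without GW5074 3 h B the GW5074 call of Mycn ended (adjusted p = 0.0687). Boc is a cell-surface co-receptor that binds Sonic hedgehog beside Ptch1. It read 281, 196 and 218 in low potassium at 3 h and 224, 326 and 325 at 6 h, and these ranges overlapped. With GW5074 it read 254, 233 and 256 at 3 h and 431, 484 and 465 at 6 h, without overlap. Boc rose by 0.79 ± 0.17 (SE) with GW5074, 1.73-fold (adjusted p = 0.00459), and its low potassium change was 0.25 ± 0.17 (SE) (adjusted p = 0.299). Gli2, the main activating Gli factor, was dim at 22.1 to 67.4 over the 12 arrays, with changes of 0.08 ± 0.29 (SE) and 0.29 ± 0.29 (SE).

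Of 11 lineage transcription factors 5 rose in low potassium and 9 with GW5074, and none passed as lower. Neurod1, the basic helix-loop-helix factor that drives granule cell differentiation, read 1543, 1235 and 1878 in low potassium at 3 h and 2949, 3472 and 3389 at 6 h. The GW5074 arrays read 1407, 1371 and 1733 and then 3064, 2911 and 3339.7. All 6 h arrays exceeded all 3 h arrays, and the rise was 2.32-fold in low potassium (1.21 ± 0.14 (SE), adjusted p = 0.000267) and 2.28-fold with GW5074 (1.19 ± 0.14 (SE), adjusted p = 0.000185). Barhl1, a homeobox factor of the rhombic lip lineage, was dim at 3 h, with 97.4, 95.2 and 95.6 in low potassium, against 112, 109.7 and 62.8 with GW5074. At 6 h it reached 207, 177 and 176 in low potassium, against 286, 229.9 and 261 with GW5074. Its rise was 0.80 ± 0.20 (SE) (adjusted p = 0.0109) and 1.28 ± 0.20 (SE) (adjusted p = 0.000727). Pax6, a paired-box factor kept from progenitor to mature granule neuron, rose less. It read 1137, 985 and 1072 and then 1145, 1520.4 and 1547 in low potassium. Its GW5074 arrays read 1127, 1008 and 1110.2 and then 1293, 1334 and 1449. The times did not overlap in either condition, although low potassium 6 h A lay just above 3 h A, with changes of 0.44 ± 0.12 (SE) (adjusted p = 0.0177) and 0.40 ± 0.12 (SE) (adjusted p = 0.025). The Pax6 calls were fragile: in low potassium the call ended without 3 h B or 6 h C (adjusted p up to 0.0861), and with GW5074 without 3 h A, 3 h B, 6 h A or 6 h C (up to 0.102).

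The nuclear factor I genes, which act in the late differentiation of granule neurons, moved alike in direction. Nfia read 168, 113 and 189 and then 221, 256 and 341 in low potassium. Under GW5074 the values were 132, 126 and 153 and then 281, 246 and 335. Both changes passed the threshold and neither pair of times overlapped, at 0.69 ± 0.20 (SE) (adjusted p = 0.0229) and 0.90 ± 0.20 (SE) (adjusted p = 0.00538). The low potassium call of Nfia ended without 3 h B or 6 h C (adjusted p up to 0.118), and its other probe sets passed with GW5074 but not in low potassium. Nfix read 632, 659 and 728 and then 775, 975 and 966 in low potassium, a change of 0.42 ± 0.12 (SE) (adjusted p = 0.0208). With GW5074 it went from 610.3, 622 and 652 to 1094, 992 and 1090.2, a change of 0.75 ± 0.12 (SE) (adjusted p = 0.000844). All Nfix arrays at 6 h lay above those at 3 h, yet the low potassium call ended without 3 h A, 3 h B, 6 h B or 6 h C (adjusted p up to 0.0796). Nfib read 656, 497 and 689.9 and then 682, 918 and 967 in low potassium, where the ranges overlapped and the change missed the threshold, at 0.47 ± 0.16 (SE) (adjusted p = 0.0548). With GW5074 Nfib read 623, 552 and 759 and then 1037, 921 and 1059, and rose by 0.65 ± 0.16 (SE) (adjusted p = 0.012). The GW5074 ranges did not overlap, its second probe set missed the threshold there (0.44, adjusted p = 0.0535), and the call ended without GW5074 3 h B (adjusted p = 0.0627).

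Zic1 and Zic2, zinc finger factors of the granule lineage, and Etv1, an ETS factor tied to granule cell maturation, passed the threshold with GW5074 alone. Zic1 read 126, 103 and 75.5 and then 172, 156 and 126 in low potassium, with overlap. With GW5074 its intensity was 88.2, 80.1 and 72.7 and then 149.7, 142 and 147, without overlap. Its changes were 0.46 ± 0.18 (SE) (adjusted p = 0.0751) and 0.72 ± 0.18 (SE) (adjusted p = 0.0111). Zic2 had its lowest values in the GW5074 arrays at 3 h, with 57.4, 97.8 and 69 there against 97.3, 105 and 96.1 in low potassium. At 6 h Zic2 read 138, 137 and 112 in low potassium, against 182, 131 and 148 with GW5074. Its rise was 0.87 ± 0.18 (SE) with GW5074 (adjusted p = 0.00364) and its low potassium change was 0.27 ± 0.18 (SE) (adjusted p = 0.302). Etv1 read 306, 256 and 322 and then 311, 417 and 518 in low potassium. Under GW5074 the values were 281, 216 and 226, later 397, 352 and 692. It rose by 0.83 ± 0.23 (SE) with GW5074 (adjusted p = 0.0179), where the times did not overlap, against 0.39 ± 0.23 (SE) in low potassium (adjusted p = 0.237), where they did. Of its other 4 tested probe sets 2 passed with GW5074. The Etv1 call ended without GW5074 3 h B or 6 h C (adjusted p up to 0.0775), and without 6 h C the change was 0.55. Meis1, a homeobox cofactor, changed by 0.42 ± 0.18 (SE) with GW5074 (adjusted p = 0.107) and Neurod2, a factor of differentiated neurons, by 0.19 ± 0.22 (SE) (adjusted p = 0.572), so neither passed.

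Fat2 had the largest change over time of the 28 genes in both conditions. It encodes a giant cadherin found on granule cells and their parallel fibres. Its intensity was 221, 238 and 424 in low potassium at 3 h and 1249, 718 and 1428 at 6 h. With GW5074 it was 176, 202 and 376 at 3 h and 1259.7, 768 and 1269.5 at 6 h. The letter B array was the lowest 6 h array in each condition and still lay above all 3 h arrays. Fat2 rose 3.73-fold in low potassium (1.90 ± 0.32 (SE), adjusted p = 0.00153) and 4.28-fold with GW5074 (2.10 ± 0.32 (SE), adjusted p = 0.000698). The contactins, immunoglobulin adhesion molecules of early (Cntn2) and later (Cntn1) parallel fibres, did not pass. Cntn2 read 58.2, 84.5 and 75.1 and then 82, 73.3 and 129.9 in low potassium. With GW5074 it read 41.8, 77.2 and 79 and then 96.1, 98.5 and 134, without overlap, a change of 0.61 ± 0.23 (SE) (adjusted p = 0.069). Cntn1 changed by 0.06 ± 0.22 (SE) in low potassium and 0.02 ± 0.22 (SE) with GW5074.

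Of the mature neuron genes 3 of 7 rose in low potassium and 4 of 7 with GW5074. Rbfox3, the splicing factor stained as NeuN in postmitotic neurons, had the smallest p-value of all members. It read 230.3, 220.1 and 217 in low potassium at 3 h and 612, 633 and 702 at 6 h. The GW5074 arrays read 215, 211 and 229.8 and then 821, 619 and 807. The gap between the times was wider than the range within any group, at 2.72-fold (1.44 ± 0.13 (SE), adjusted p = 7.5e-05) and 3.17-fold (1.67 ± 0.13 (SE), adjusted p = 2.71e-05), and its second probe set passed in both conditions. Map2, a microtubule-associated protein of dendrites, read 681, 556 and 758 and then 1159, 936 and 1634 in low potassium. Under GW5074 the values were 562, 611 and 714 and then 1277, 816 and 1351. Map2 rose by 0.90 ± 0.22 (SE) (adjusted p = 0.0111) and 0.86 ± 0.22 (SE) (adjusted p = 0.0128), with no overlap. Both of its calls rested on single arrays: they ended in low potassium without 3 h B or 6 h C (adjusted p up to 0.0593) and with GW5074 without 3 h A, 6 h A or 6 h C (up to 0.0638).

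The neurofilament genes, which build the axonal cytoskeleton, differed in whether they passed, and the difference between them was not tested. Nefl, the light chain, read 1355, 1319 and 1710.2 and then 1915, 1970.1 and 1793 in low potassium. With GW5074 its intensity was 1387, 1356 and 1515 and then 2058, 1975 and 1773. It rose by 0.48 ± 0.11 (SE) (adjusted p = 0.00765) and 0.57 ± 0.11 (SE) (adjusted p = 0.00268), with separate ranges at 3 h and 6 h. Nefm, the medium chain, changed by 0.12 ± 0.14 (SE) (adjusted p = 0.562) and 0.36 ± 0.14 (SE) (adjusted p = 0.0662). Nefh, the heavy chain, was -0.22 ± 0.39 (SE) and 0.42 ± 0.39 (SE), with a standard error above those of the other 27 genes. Mapt, which encodes tau, was at 0.14 ± 0.09 (SE) and 0.14 ± 0.09 (SE) by its brightest probe set, and its other probe sets had negative signs in low potassium. Slc17a7, the vesicular glutamate transporter VGLUT1 of mature granule cell terminals, read 1246, 1759 and 2241 and then 1728, 1931 and 1669 in low potassium, with overlap. With GW5074 it read 1326, 1829.7 and 1989 and then 2226, 2438 and 2407, without overlap. The rise with GW5074 was 0.60 ± 0.18 (SE) (adjusted p = 0.0246), and the low potassium change was 0.17 ± 0.18 (SE) (adjusted p = 0.535). This call ended without GW5074 3 h A, 3 h B, 6 h A or 6 h C (adjusted p up to 0.113), its second probe set did not pass with GW5074 (0.12) and had the other sign in low potassium (-0.28), and averaging both gave 0.36 with GW5074, which did not pass.

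Among the other lineage genes 2 of 4 rose in low potassium and 4 of 4 with GW5074. Eomes (Tbr2) and Calb2 (calretinin) mark unipolar brush cells, the other glutamatergic neuron of the granular layer, and Calb2 is also found in granule cells. Eomes read 43.5, 34.7 and 57.4 and then 84.8, 88.2 and 86 in low potassium. Under GW5074 it went from 32.7, 42.8 and 38.3 to 118, 133 and 57.2. It rose by 0.75 ± 0.23 (SE) (adjusted p = 0.0328) and 1.08 ± 0.23 (SE) (adjusted p = 0.0049), and the ranges of the 2 times were apart. At a pseudocount of 64 these changes were 0.46 and 0.68, and both still passed. Its second probe set passed with GW5074 and missed the threshold in low potassium (0.68, adjusted p = 0.072). The low potassium call of Eomes ended without any one of its 6 arrays except 3 h C (adjusted p up to 0.137). Calb2 read 156, 145 and 192 and then 328, 225 and 430.2 in low potassium. The GW5074 arrays gave 132, 132 and 133, then 273, 188 and 448. Its rise was 0.85 ± 0.26 (SE) (adjusted p = 0.033) and 0.95 ± 0.26 (SE) (adjusted p = 0.0177), and the letter B array was its lowest at 6 h in both conditions. Its call ended in low potassium without 3 h A, 3 h B, 6 h A or 6 h C (adjusted p up to 0.146) and with GW5074 without 3 h B or 6 h C (up to 0.0789), where leaving out 6 h C brought the change to 0.63. Slc17a6, the transporter VGLUT2 of immature glutamatergic terminals, was dim, with 22, 21.6 and 25.8 and then 34.7, 43.9 and 65.6 in low potassium. The GW5074 arrays read 20.4, 23.8 and 5.13 and then 37.4, 31.5 and 57.8, and the times did not overlap in either condition. Its change was 0.91 ± 0.29 (SE) with GW5074 (adjusted p = 0.0337) and 0.69 ± 0.29 (SE) in low potassium (adjusted p = 0.101). The Slc17a6 value moved with the pseudocount, to 1.59 at a pseudocount of 1 and 0.42 at 64, and its call ended without GW5074 3 h C, where the change was 0.61, or without 6 h A or 6 h C (adjusted p up to 0.136). Reln encodes reelin, the secreted glycoprotein that granule cells release to position Purkinje cells. It read 2832, 3087 and 3396 and then 2986, 3429.6 and 3989 in low potassium, and these ranges overlapped. With GW5074 Reln read 2358, 2363 and 3096 and then 4094, 3778 and 4668, with no overlap. It rose by 0.85 ± 0.14 (SE) with GW5074 (adjusted p = 0.00119), against 0.30 ± 0.14 (SE) in low potassium (adjusted p = 0.148).

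**Figure D2:**
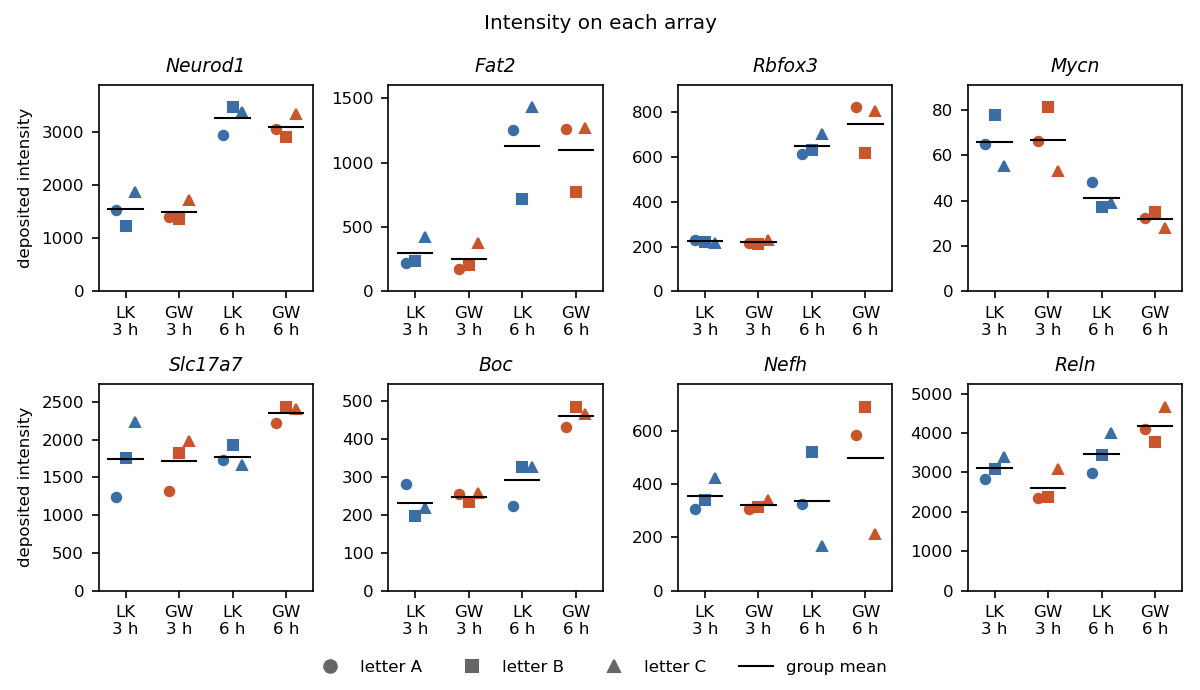
Deposited intensity (linear, scaled by the submitters to a common array mean) of 8 genes on each array of low potassium (LK, blue) and GW5074 (GW, orange) at 3 h and 6 h, with a symbol for each letter and a line at the mean of 3 arrays. Rbfox3 rises from 230.3, 220.1 and 217 to 612, 633 and 702 in low potassium, the Mycn arrays of GW5074 are lower at 6 h than at 3 h, and the GW5074 arrays at 6 h lie above those of low potassium for Slc17a7 and Boc.

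The letter B arrays at 6 h, which sat nearer to 3 h over all probe sets, did not lag evenly in these genes. This was read over the 11 genes that rose in both conditions. The test that picked them includes the B arrays and so favours genes in which these rose too. In these genes the low potassium B array showed a median of 98.4% of the rise of arrays A and C, with a range of 35.7% to 155%. The GW5074 B array showed a median of 80.4%, with a range of 32.2% to 161%. The letter B array was the lowest at 6 h for 3 of 11 genes in low potassium and for 9 of 11 with GW5074. Calb2 and Map2 had under 50% of the A and C rise in the B array of both conditions, whereas Nefl and Eomes had close to all of it or more. Markers of other cells moved over the same interval, and their part in the members' rise was not tested. Of 9 tested astrocyte and Bergmann glia markers, 3 rose in both conditions (Hopx, Gfap and Aldoc) and none passed as lower. The list was mixed in sign, with 6 of the 9 above 0 in low potassium and 5 with GW5074. Its median change was 0.39 in low potassium and 0.008 with GW5074, and Slc1a3 was lowest at -0.33 and -0.50. Summed intensity was taken over the 11 listed markers with a probe set, the untested Gjb6 and Slc1a2 included. It ranged from 2528 to 3498 at 3 h and from 4185 to 6692 at 6 h in low potassium. With GW5074 that sum ranged from 2537 to 2989 at 3 h and from 4720.5 to 5332 at 6 h. Of 8 tested oligodendrocyte lineage markers, 2 fell in low potassium and 1 with GW5074. Sums here covered the 11 listed markers with a probe set, the untested Cspg4, Mobp and Olig2 included. They were 3219.8 to 4048 at 3 h and 2374 to 2565 at 6 h in low potassium. With GW5074 they were 2747 to 3522 at 3 h and 1951 to 2869 at 6 h. None of 7 microglia markers, 3 endothelial or fibroblast markers and 11 cell cycle genes passed in either condition. Of 9 Purkinje and GABAergic markers, Pvalb fell in both conditions, and with GW5074 Car8 fell and Itpr1 rose. Among all tested probe sets 11.6% rose and 11% fell in low potassium, and 13.1% rose and 11.9% fell with GW5074. Counts of 1 or 2 in lists this short are not set apart from those shares.

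At 3 h no gene among the 28 passed the threshold between GW5074 and low potassium. In limma without pairing, 0 of 18625 probe sets passed (0%, 299 at an unadjusted p under 0.05, 1 of the 28 genes among them). Arrays of the same letter and time deviated together, so the letter was also used as a pair within each time. In this paired fit 3 probe sets passed (0.0161%), none of them of a member. The median difference of the 28 genes was -0.06, GW5074 minus low potassium, against -0.00 for all probe sets, and 6 of 28 were above 0. Reln had the smallest paired p, with within-pair differences of -0.29, -0.41 and -0.08 for letters A, B and C, a mean of -0.26 ± 0.07 (SE) (adjusted p = 0.624). Zic2 followed at -0.40 ± 0.14 (SE) (adjusted p = 0.684) and Fat2 at -0.22 ± 0.09 (SE) (adjusted p = 0.711). All 3 letters of these genes had the same sign, and none of the values passed.

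At 6 h Slc17a7, Boc and Nefh were higher with GW5074 in the paired fit, and no member was lower. Without pairing, 0 of 18625 probe sets passed at 6 h (0%, 895 at an unadjusted p under 0.05, 3 of the 28 genes among them), so these calls exist only with the pairing. In the paired fit 0.945% of all probe sets were called higher and 0.923% lower, against 4 of the 43 member probe sets (9.3%) higher. The choice of the members with earlier results known limits this contrast too. The median difference of the 28 genes was 0.16 against 0.00 for all probe sets, with 18 of 28 above 0. Slc17a7 at 6 h read 1728, 1931 and 1669 in low potassium, against 2226, 2438 and 2407 with GW5074. The groups did not overlap, and the differences by letter were 0.36, 0.37 and 0.53. The paired difference was 0.42 ± 0.06 (SE), 1.34-fold (adjusted p = 0.00429, or 0.983 without pairing). Its second probe set was higher too, at 0.39 (adjusted p = 0.0411). Boc at 6 h read 224, 326 and 325 in low potassium, against 431, 484 and 465 with GW5074, again without overlap. Its differences by letter were 0.88, 0.54 and 0.49, with a mean of 0.64 ± 0.11 (SE), 1.56-fold (adjusted p = 0.00971, or 0.681 without pairing). Nefh at 6 h read 326, 521 and 165 in low potassium, against 584, 690.0 and 213 with GW5074. Its groups overlapped, with both letter C arrays low, and each GW5074 array was above the low potassium array of its letter. The differences by letter were 0.82, 0.41 and 0.33, with a mean of 0.52 ± 0.11 (SE) (adjusted p = 0.0236, or 0.983 without pairing). The calls of Boc and Nefh ended without the 6 h pair A (adjusted p = 0.12 and 0.255), while that of Slc17a7 held without any single pair (adjusted p up to 0.0394). None of the 3 calls held when the variance was not modelled as a trend of the mean (adjusted p = 0.182 for Boc, 0.209 for Nefh and 0.204 for Slc17a7).

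The next smallest p-values at 6 h belonged to Reln, Neurod2 and Barhl1, which did not pass. Reln had differences by letter of 0.52, 0.12 and 0.23 and a mean of 0.29 ± 0.07 (SE) (adjusted p = 0.0553). Neurod2 had 1.12, 0.27 and 0.08, so letter A carried most of its mean of 0.49 ± 0.15 (SE) (adjusted p = 0.11). Barhl1 was even across letters, at 0.40, 0.34 and 0.52, with a mean of 0.42 ± 0.15 (SE) (adjusted p = 0.176) and groups that did not overlap. RNA condition was read from the 3′ minus 5′ value of control probe sets. That of actin was greater under GW5074 in 3 of 3 pairs at each time. The excess was 0.02 to 0.30 at 3 h and 0.04 to 0.18 at 6 h on the log2 scale. That of GAPDH was lower under GW5074 in pair A at 3 h (0.09 against 0.11) and pair C at 6 h (0.14 against 0.19). In the other pairs GAPDH was greater under GW5074. The part of RNA condition in these differences was not tested. Averaged over both times, 0 probe sets passed without pairing (0%, 468 at an unadjusted p under 0.05) and 0.236% with it, none of them of a member. Boc came nearest, at 0.37 ± 0.08 (SE) (adjusted p = 0.0859), followed by Slc17a7 at 0.20 ± 0.05 (SE) (adjusted p = 0.0951) and Neurod2 at 0.35 ± 0.11 (SE) (adjusted p = 0.256).

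**Figure D3:**
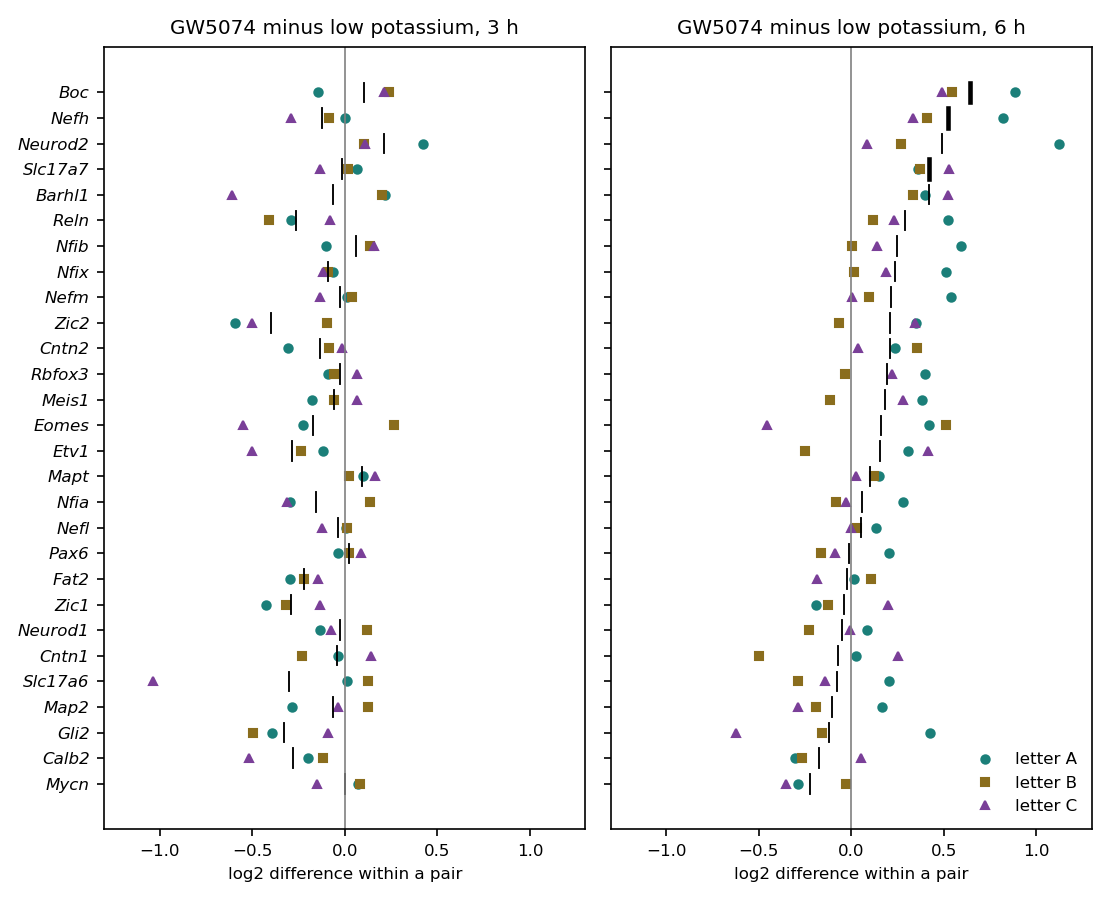
Log2 difference of GW5074 minus low potassium within each letter pair at 3 h (left) and 6 h (right) for the 28 tested genes, ordered by the 6 h mean, with a vertical tick at the mean that is thick where the paired limma fit gave an adjusted p under 0.05. Thick ticks stand at Boc (0.64), Nefh (0.52) and Slc17a7 (0.42) at 6 h, and there is none at 3 h.

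Whether the GW5074 difference itself changed between 3 h and 6 h was tested as an interaction. Reln was the only member to pass, and only in the paired fit. Its difference turned from -0.29, -0.41 and -0.08 by letter at 3 h to 0.52, 0.12 and 0.23 at 6 h, so all 3 letters were below 0 at the earlier time and above 0 at the later one. The change of the difference was 0.55 ± 0.10 (SE) (adjusted p = 0.0468, or 1 without pairing). Its second probe set gave 0.43 and did not pass (adjusted p = 0.169). The call held without the 6 h pair B and ended without any other single pair (adjusted p up to 0.199). Over all probe sets 0.177% passed in the paired fit and 0% without pairing (0 of 18625, 644 at an unadjusted p under 0.05, 3 of the 28 genes among them). Slc17a7 came next at 0.44 ± 0.09 (SE) (adjusted p = 0.0572), then Nefh at 0.64 ± 0.16 (SE) (adjusted p = 0.1) and Boc at 0.54 ± 0.16 (SE) (adjusted p = 0.157). The rise from 3 h to 6 h was larger with GW5074 than in low potassium for 23 of the 28 genes, with a median of 0.23 for the difference of the 2 rises against 0.00 for all probe sets. For 27 of these 28 genes that difference did not pass, so the longer list of rises with GW5074 does not show that the genes responded differently.

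Progenitor and hedgehog genes were then set against mature ones on each array, as a description without a test. Each gene was centred on its mean over the 12 arrays. The progenitor mean covered the 5 of 8 listed genes with a probe set (Mycn, Gli1, Gli2, Smo and Boc, the dim Gli1 and Smo included), and the mature mean covered 9 genes (Rbfox3, Map2, Mapt, Nefl, Nefm, Nefh, Slc17a7, Cntn1 and Fat2). The progenitor minus mature value was 0.40 ± 0.19 (SD, n = 3) in low potassium at 3 h and -0.27 ± 0.08 at 6 h. With GW5074 it was 0.25 ± 0.13 at 3 h and -0.38 ± 0.20 at 6 h. By array, low potassium had 0.55, 0.46 and 0.19 at 3 h and -0.31, -0.19 and -0.32 at 6 h. GW5074 had 0.34, 0.31 and 0.10 at 3 h and -0.50, -0.15 and -0.49 at 6 h. All 3 h arrays were above 0 and all 6 h arrays below 0. The shift over time was -0.67 in low potassium and -0.63 with GW5074, and with the 3 progenitor genes past the filter (Mycn, Gli2 and Boc) it was -0.61 and -0.64. GW5074 minus low potassium was -0.15 at 3 h, with differences by letter of -0.21, -0.15 and -0.08 (SD 0.06, 3 pairs). At 6 h it was -0.10, with -0.18, 0.04 and -0.17 by letter (SD 0.12). The 3 h value rested on the dim Gli1 and Smo, since without them it was -0.02, and at a pseudocount of 1 it was -0.39. The 6 h value was -0.05 without them and -0.30 by the median over genes, so the size of the treatment difference depended on these choices. In low potassium most of the shift over time lay on the mature side, whose mean went from -0.30 to 0.25. With GW5074 only the mature side moved in the direction of the shift, and its mean went from -0.35 to 0.40. This mature mean includes Fat2 and Cntn1, grouped as adhesion above. Fat2 had the largest change of any member (1.90 and 2.10), and the mean was not recomputed without it. On the progenitor side the mean fell from 0.10 to -0.02 in low potassium and rose from -0.10 to 0.02 with GW5074, against the shift. The 2 progenitor genes that passed with GW5074, Boc and Mycn, moved in opposite directions. Taking the median over genes in place of the mean gave smaller shifts of -0.29 in low potassium and -0.43 with GW5074.

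**Figure D4:**
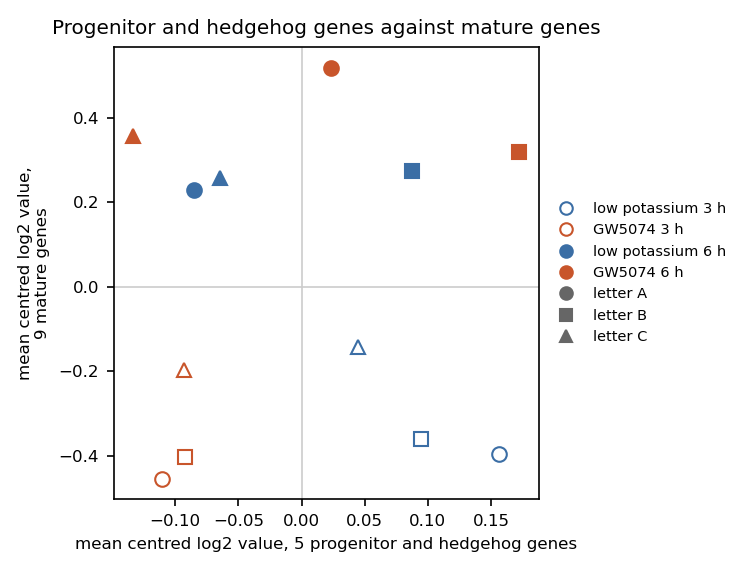
Mean centred log2 value of 5 progenitor and hedgehog genes (horizontal axis) against that of 9 mature genes (vertical axis) on each of the 12 arrays, with open symbols for 3 h, filled symbols for 6 h, colours for the treatment and shapes for the letter. The 6 h arrays lie above 0 on the mature axis and the 3 h arrays below it, while the times are mixed on the progenitor axis.

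Other genes of the same pathways, from lists that hold no member, were counted alongside. In the wider hedgehog pathway 17 of 37 listed genes could be tested. In low potassium 2 rose and 0 fell, namely Spop (0.78) and Fbxw7 (0.65), which code for ubiquitin ligase adaptors, and this count is near the 11.6% of all probe sets that rose. With GW5074 3 rose and 1 fell, where 13.1% of all probe sets rose and 11.9% fell, with Ccnd2, a cyclin D target of hedgehog signalling, at -0.70. At 6 h the paired fit had Ccnd1, another cyclin D, lower with GW5074 at -0.55, and no other gene of this list passed. For the next 2 lists the shares of all probe sets were 11.6% up and 11% down in low potassium. With GW5074 they were 13.1% up and 11.9% down. The lists too were chosen with earlier results known. Of 29 tested granule neuron maturation genes, 10 rose and 5 fell in low potassium, and 11 rose and 2 fell with GW5074. The rises included Cbln1, a synapse organiser of parallel fibres (1.42 in low potassium and 1.62 with GW5074), and Gabra6, the granule cell GABA-A receptor subunit (1.86 and 2.05). The falls included Mef2c, an activity-regulated factor (-1.26 and -1.29). At 6 h 5 of the 29 were higher with GW5074 in the paired fit and 0 lower, where 0.945% of all probe sets were higher and 0.923% lower. Among the 5 were Grm4, a presynaptic glutamate receptor (0.65), Kcnd2, an A-type potassium channel (0.48), and the vesicle proteins Vamp2 (0.57) and Syp (0.35). Without pairing 0 of 18625 probe sets passed at 6 h, so the 6 h calls in these lists exist only with the pairing. The paired fit without the variance trend called 1 probe set. Of 27 immature neuron genes 8 rose and 1 fell in low potassium, and 10 rose and 0 fell with GW5074, so genes of the immature list rose over the same hours as the mature ones. Sox4, an early neuronal factor, rose in both conditions (0.79 and 0.68), as did Sox11, a relative of it (1.25 and 0.77). At 6 h in the paired fit L1cam, an axonal adhesion molecule, was higher with GW5074 (0.49) and Sox4 lower (-0.27).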

How the data were processed

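The authors deposited 1 table of linear signal intensity per probe set for 12 arrays. The sources used here name neither the summarisation method nor the software. Each array's mean, trimmed by 2% at each end, was 150. The 34 members and all lists were chosen with earlier results of these data known. Control probe sets (57) were removed, and the intensities were quantile normalised and transformed to log2(intensity + 16). Probe sets at or above the 40th percentile of the mean over all arrays were kept (18625). A model of 4 group means was fitted with limma 3.58.1 in R 4.3.3, with a variance trend, two-sided, at a Benjamini-Hochberg adjusted p of 0.05, and tested on simulated data. Labels pair nothing, but deviations of same-letter arrays correlated within each time (0.21 to 0.65) and not across times (-0.07 to 0.18), so a paired fit used letter within time (replicate block, which called 348 probe sets at 6 h). A gene is its brightest probe set. Genes that passed in any comparison were described in full, with the 3 next smallest p-values per comparison, and up to 4 genes per other list. The title of the GW5074 6 h array A has another suffix than the rest, whose meaning is not stated. Without the 6 h pair that holds this array, the paired fit called 59 probe sets at 6 h.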

Additional observations from a re-analysis of the deposited data

Results flagged for a closer look

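Reln was singled out because its GW5074 difference changed between the times by a test of that change. In the paired fit the difference at 6 h exceeded that at 3 h by 0.55 on the log2 scale (limma, adjusted p = 0.0468), with all 3 letters below 0 at 3 h and all 3 above 0 at 6 h. Its second probe set gave 0.43 and did not pass (adjusted p = 0.169).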

How the results depend on the processing

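No called change of a member reversed its sign under any alternative run. Of the alternative values of called members, 662 stayed past the threshold and 68 did not. For changes over time these include runs without an array of the other condition. Such runs leave the change itself as it was and touch only the shared variance, so the count of 662 overstates how firm the calls are. The cause of each loss was not tested. Leaving out a filter, which adds dim probe sets to the adjustment, ended the low potassium rises of Calb2 (adjusted p = 0.0516) and Eomes (0.0646), the GW5074 rise of Slc17a6 (0.0548) and the 6 h difference of Nefh (0.0562). Without quantile normalisation the GW5074 rises of Pax6 (0.0674) and Slc17a7 (0.0703) ended, and without the variance trend they reached 0.0563 and 0.0501. The mean of all probe sets ended the low potassium rise of Nfia (0.05).

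Over time, array weights raised the GW5074 count to 9029 probe sets, and leaving out single arrays gave 2192 to 4956 probe sets in low potassium and 2453 to 5363 with GW5074. Members called up in low potassium were 5 to 12 without single arrays. Members called down in low potassium were 1 with array weights, 1 without the variance trend and 0 to 1 without single arrays. With GW5074 they were 0 to 1 without single arrays and 0 at the 60th percentile filter, where the dim Mycn was not tested. Letters did not deviate together across times, and the replicate block over both times gave 14 members up and 1 down in low potassium and 20 up and 1 down with GW5074.

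Between treatments, the fit without pairing called 0 probe sets, array weights called 5 at 6 h and 6 over both times, and leaving out single arrays called 0 to 3 in either. The replicate block called 3 at 3 h, 348 at 6 h, 44 over both times and 33 for the change of the difference. With the replicate block, no filter gave 0, 148, 19 and 0 in that order, and no variance trend gave 0, 1, 4 and 0. A pseudocount of 1 gave 1 for the change of the difference. Leaving out single pairs gave 0 to 6 at 3 h, 59 to 290.0 at 6 h, 15 to 48 over both times and 0 to 154 for the change of the difference. Members called at 6 h were 0 without the variance trend and 1 to 4 without single pairs. The 1 member called for the change of the difference, Reln, was 0 with no filter, no variance trend, no quantile normalisation, a pseudocount of 1 or the mean of probe sets, and 0 to 1 without single pairs.

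The progenitor minus mature value over members' medians was -0.29 over time in low potassium, -0.43 over time with GW5074 and -0.30 for GW5074 at 6 h, and at a pseudocount of 1 it was -0.39 for GW5074 at 3 h. The repeats of the paired fit, the fit without both 6 h arrays of letter B and the index without dim genes were chosen after seeing the data. Signal over background limits Gli1, Smo and Meis2.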
